A study of Mus musculus with 3 samples.

Results

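The N-methyl-D-aspartate (NMDA) receptor subunit genes were taken by symbol from the gene table of the deposited count matrices, and 6 of its 32287 features were described: Grin1, Grin2a, Grin2b, Grin2c, Grin2d and Grin3a. Their levels were read in retinal ganglion, amacrine, bipolar, horizontal, photoreceptor and Müller glia (MG) cells of 3 mouse single-cell libraries, and in the cells of the count table that the authors made for the whole series. NMDA receptors are ligand-gated cation channels that open when glutamate and a co-agonist, glycine or D-serine, are bound and the membrane is depolarized. Grin1 encodes the obligatory subunit GluN1, which binds the co-agonist. Grin2a to Grin2d encode the GluN2 subunits, which bind glutamate and set the kinetics of the channel. Grin3a encodes GluN3A, a glycine-binding subunit that lowers calcium entry when it is built into the receptor. In the retina, NMDA given into the eye injures ganglion and amacrine cells, and this form of damage is widely used to study the response of MG.

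All mice carried Glast-CreERT2, which gives tamoxifen-inducible Cre in MG, and R26-CAG-LSL-Tdt, which marks the recombined cells with the red reporter tdTomato. Per the labels, tamoxifen (75 mg/kg) was started on postnatal day 20, whereas the study's methods give a lower dose and later days for labelling most MG. Per the labels, adeno-associated virus (AAV7m8) was given on day 28 in all 3 groups. The control group received a GFAP promoter virus expressing GFP with a control shRNA. The CCA group (cell cycle activator) received a GFAP promoter virus that expresses cyclin D1 and knocks down p27Kip1, mixed 9:1 with the GFP virus. The CCANT group received the same mix, then NMDA on day 35 and the histone deacetylase inhibitor trichostatin A (TSA) on day 37. Retinas were harvested on day 51, between 2 and 4 were pooled per group, and tdTomato-positive cells were sorted. NMDA reached only the CCANT library and always with TSA, so the effects of the 2 agents and of the mice of that library cannot be told apart. Control cells carried Y-linked transcripts, CCA cells carried Xist, and CCANT held cells of both kinds. Between CCA and control, the effects of the virus, of sex and of the mice therefore cannot be told apart.

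Each group is 1 library. No value between groups therefore has a replicate error, and no test was made. Levels are given as UMIs per 1000000 UMIs (CPM), summed over the cells of a class, and ratios between libraries as log2 ratios. Values in square brackets are exact 95% Poisson intervals, and for the share of cells with a UMI they are exact Clopper-Pearson intervals. These cover counting error only. They leave out the sampling of cells and of cell subtypes, which matters for Grin2a and Grin3a because few cells held many of their UMIs. A level that is 0 is set against a limit of 3 counts.

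The libraries held 219051219 to 224515457 UMIs, and 9579, 10521 and 10890 cells passed the filters in control, CCA and CCANT. Of these, 2104, 2867 and 2600 fell into the clusters of inner retinal neurons. The sort was for tdTomato, but in the pooled counts of ganglion-, amacrine-, bipolar- and horizontal-like cells tdTomato stood at 1.28 to 5.78 CPM, against 89.0 to 139 CPM in the MG that the authors kept. None of the ganglion, amacrine or horizontal cells and 1 bipolar cell of CCANT (0.0786%) were among the kept cells, so the neurons described here came along with the sort and lie outside the cells of the deposited joint table. Shared barcodes numbered 23 to 38 between pairs of libraries. Clusters that mixed MG with neurons or rods made up 5.72%, 8.06% and 12.8% of the cells. They were left out of the levels and ratios, but not of the search below for genes closest in pattern. The classes were named from clusters, and the names rest on marker genes. Ganglion-like cells, 143 in control, 80 in CCA and 52 in CCANT, carried 689 to 724 CPM of Rbpms and 468 to 509 CPM of Slc17a6, against at most 4.50 and 0.970 CPM in amacrine-like cells. Microglia-like cells, which also held immunoglobulin transcripts of plasma cells, served as the class that should lack these receptors.

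The 6 genes lie on 6 chromosomes in the mouse GRCm38 assembly, all on the minus strand. Grin1 (chr2:25291181-25319187) spans 28007 bases with 34.6% of them exonic, and Grin2c (chr11:115249169-115267243) spans 18075 bases. Grin2d lies at chr7:45831883-45878378. Grin2a (chr16:9567898-9995560), Grin2b (chr6:135713233-136173511) and Grin3a (chr4:49661611-49845744) are far longer, 427663, 460279 and 184134 bases, with 4.19%, 5.40% and 6.67% exonic. UMIs are counted from 3′ ends, and intronic reads were included in the counting per the study's methods. Counts of different genes therefore cannot be compared as levels, and levels were read between cells within a gene. The sum of the 6 members uses the counts as they are. Antisense genes overlap Grin1 (Grin1os), Grin2b (3 long non-coding genes) and Grin2d (Kdelr1 and Gm45441), and Ppp3r2 lies within Grin3a on the same strand.

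RefSeq start-site windows of 300 bases matched 3 of the 6 members, Grin1, Grin2c and Grin2d, and all 3 are shown. Capitals mark GGGCGG, the core of the GC box, searched on both strands. The sequences are of the minus strand of GRCm38.p6, at chr2:25319138-25319437 for Grin1, chr11:115267194-115267493 for Grin2c and chr7:45866632-45866931 for Grin2d. The Grin1 and Grin2c windows lie at the 5′ end of the gene spans given above, and the Grin2d window lies inside its span, away from that end.
Grin1: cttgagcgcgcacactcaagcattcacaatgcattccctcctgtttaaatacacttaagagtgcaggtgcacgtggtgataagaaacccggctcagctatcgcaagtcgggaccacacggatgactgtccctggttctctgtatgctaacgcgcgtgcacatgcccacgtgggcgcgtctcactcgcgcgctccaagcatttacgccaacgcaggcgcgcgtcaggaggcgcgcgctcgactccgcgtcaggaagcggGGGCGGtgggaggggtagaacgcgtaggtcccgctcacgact
Grin2c: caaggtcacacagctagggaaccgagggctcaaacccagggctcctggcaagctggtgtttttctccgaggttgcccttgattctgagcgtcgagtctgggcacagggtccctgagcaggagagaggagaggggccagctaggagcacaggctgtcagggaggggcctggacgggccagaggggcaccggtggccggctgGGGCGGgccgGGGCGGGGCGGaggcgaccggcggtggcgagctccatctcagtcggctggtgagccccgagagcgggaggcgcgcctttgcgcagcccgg
Grin2d: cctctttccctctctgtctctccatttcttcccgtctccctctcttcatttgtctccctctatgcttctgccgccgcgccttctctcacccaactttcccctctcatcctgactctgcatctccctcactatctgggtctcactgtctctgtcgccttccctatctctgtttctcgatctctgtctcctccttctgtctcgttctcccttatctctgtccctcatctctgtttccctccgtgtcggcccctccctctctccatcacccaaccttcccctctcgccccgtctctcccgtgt
The Grin1 window was 60.7% G or C with 33 CpG dinucleotides and 1 GGGCGG, and the Grin2c window was 70.0% G or C with 22 CpG and 3 GGGCGG. The Grin2d window had 56.0% G or C, 12 CpG and no match. Over all 32851 windows of the same table the medians were 52.7% and 7 CpG, and 11714 windows (35.7%) held GGGCGG. A match is a description of the letters and not a binding site.

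Grin1 was counted in every inner neuron class and sat near its background in photoreceptors and glia. Its level was highest in a cluster group that no marker list named and in horizontal-like cells, lower in amacrine- and ganglion-like cells, lower again in cone bipolar-like cells and lowest among the inner neurons in rod bipolar-like cells. Horizontal-like cells, of which there were 30, 28 and 30, held 242.5 [220.1, 266.6] CPM in control, with 252 [226, 280.1] in CCA and 246 [222, 272] in CCANT. The unnamed group, clusters N2 and N34 led by Spink13, Kcnh1 and Gjd2, held 264, 258 and 260.4 CPM. These 2 groups did not differ beyond their counting error. Glycinergic amacrine-like cells stood at 182.5, 181 and 172.5 CPM, GABAergic amacrine-like cells at 164.5, 162 and 166, and ganglion-like cells at 148, 168 and 162.5. In CCANT the intervals of these 3 classes overlapped. In control, ganglion-like cells lay below GABAergic amacrine-like cells without overlap, and in CCA glycinergic amacrine-like cells lay above GABAergic amacrine-like cells without overlap.

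Cone bipolar-like cells held 104.5 [97.3, 112] CPM of Grin1 in control, 103 [97.0, 109] in CCA and 108 [102, 115] in CCANT. Rod bipolar-like cells, the cells that carry the rod signal to the AII amacrine cell, held 44.5 [38.8, 50.7], 43.8 [39.0, 49.0] and 44.6 [40.2, 49.3] CPM. The cone bipolar-like level exceeded the rod bipolar-like level in each library without overlap. Cluster N21, counted as cone bipolar-like although its rod bipolar marker score was the higher, held 117.5, 99.2 and 104 CPM. Rods stood at 4.74, 7.84 and 4.36 CPM, cones at 6.37, 14.1 and 10.1, microglia-like cells at 7.06, 9.05 and 8.87, and kept MG at 1.61, 1.86 and 1.77. Photoreceptors were therefore not above the microglia-like level in all 3 libraries, and kept MG lay below it.

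The share of cells with a Grin1 UMI gave the same picture once each cell was thinned to 4000 UMIs. In control, CCA and CCANT these shares were 50.5%, 49.9% and 44.1% of GABAergic amacrine-like cells and 42.0%, 49.4% and 55.8% of ganglion-like cells. They were 31.8%, 32.7% and 33.9% of cone bipolar-like cells and 16.2%, 15.2% and 17.8% of rod bipolar-like cells. Microglia-like cells gave 0.769%, 3.25% and 0.599% and kept MG 0.808%, 0.547% and 0.878%, which is read as background. Without thinning, 97.2% of control, all 80 of CCA and 98.1% of CCANT ganglion-like cells and 91.1%, 91.6% and 91.1% of GABAergic amacrine-like cells had a UMI, against 5.77%, 8.44% and 5.39% of microglia-like cells. The median depth was 50474 to 59397 UMIs in ganglion-like cells, 20462 to 24334 in GABAergic amacrine-like cells and 17519 to 23342 in microglia-like cells.

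**Figure D1:**
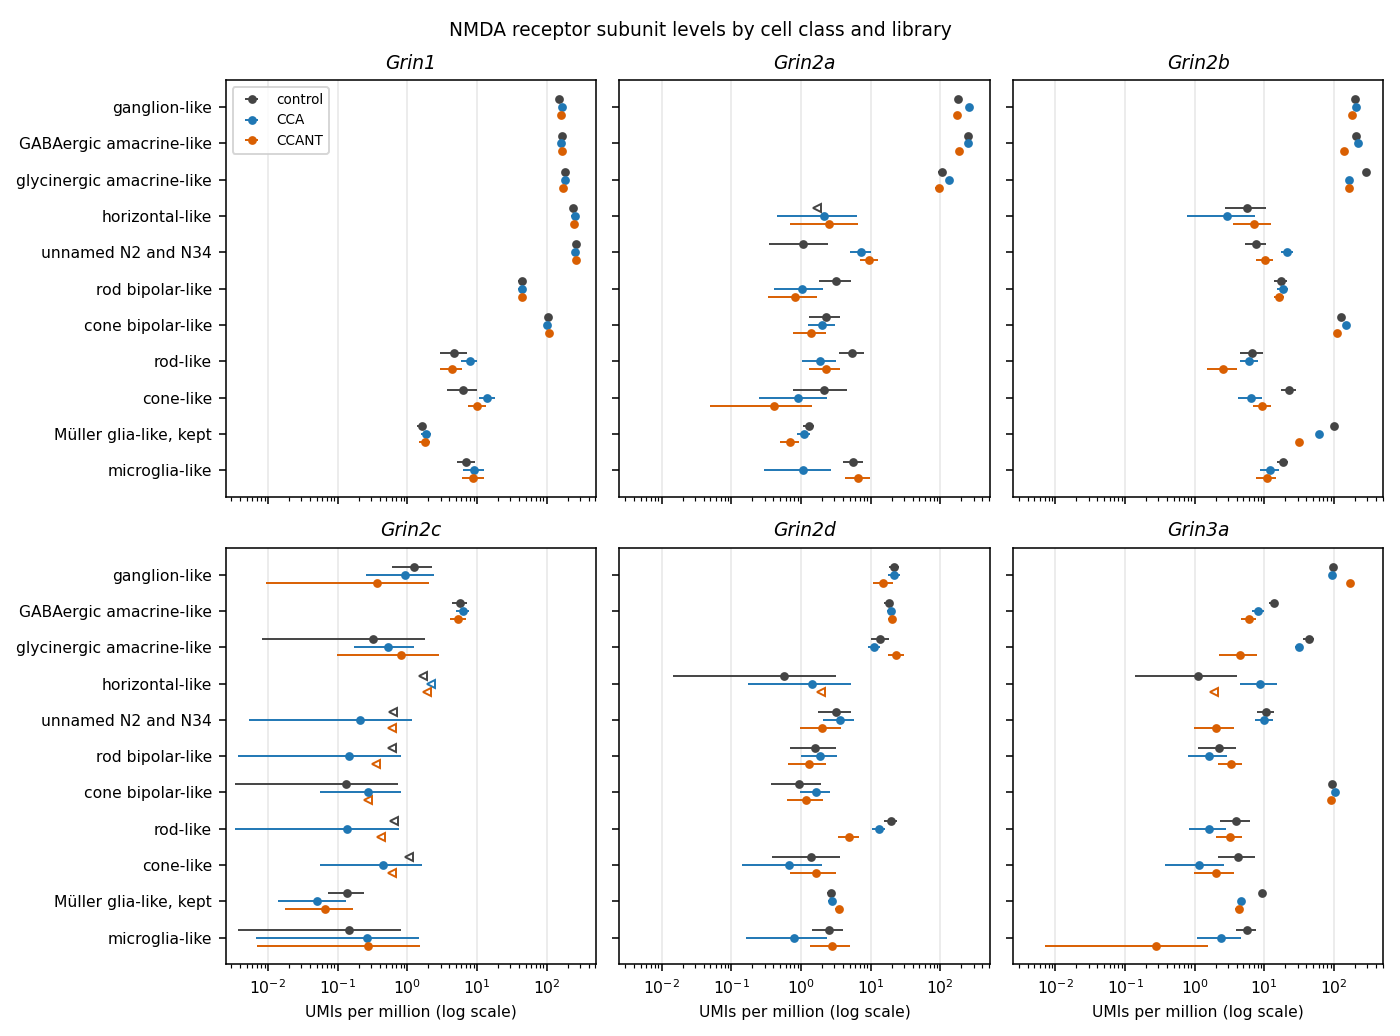
Levels of the 6 NMDA receptor genes (CPM, log axis) in each cell class, with 1 point per library and bars for the exact 95% Poisson interval. Grin1 runs from 264 CPM in the unnamed group N2 and N34 down to 1.61 CPM in kept MG, while Grin2c stays at or below 6.24 CPM in every class plotted.

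Taken over 9 cell classes and 6 genes, 22 of 54 levels stood above the microglia-like level in each of the 3 libraries with no overlap of the intervals. Grin1 did so in 6 classes, Grin2b in 5, Grin3a in 4, Grin2a and Grin2d in 3 each and Grin2c in 1. Ganglion-like cells passed for 5 members and GABAergic amacrine-like cells for all 6. Horizontal-like cells passed for Grin1 alone.

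Horizontal-like cells thus carried the obligatory subunit with little of any GluN2 gene. Grin2b stood at 5.67, 2.89 and 7.05 CPM there and Grin2a at 0, 2.17 and 2.57, none above the range of microglia-like cells (10.8 to 18.4 and 1.07 to 6.65 CPM). Grin2c was listed at 0 in all 3 libraries. The unnamed group N2 and N34 of 204, 190 and 231 cells held 7.59, 21.1 and 10.3 CPM of Grin2b and 1.05, 7.19 and 9.49 CPM of Grin2a. Both genes lay above the microglia-like level without overlap of the intervals in CCA, and in neither of the other libraries.

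Grin2a, which encodes GluN2A, stood above the microglia-like level in ganglion-like cells and both amacrine-like classes and in no other of the 9 classes. GABAergic amacrine-like cells held 247 [238, 256] CPM in control, with 249 [240.1, 257] in CCA and 186 [178, 194.5] in CCANT. Ganglion-like cells held 182 [172, 191], 256 [241, 271] and 176 [161, 193] CPM, and glycinergic amacrine-like cells 105 [93.7, 117], 134.5 [127, 142] and 94.7 [83.0, 107.5]. Bipolar-like cells stood at 2.64, 1.63 and 1.14 CPM and kept MG at 1.29, 1.11 and 0.689, neither above microglia-like cells in all libraries. After thinning to 4000 UMIs, 38.1%, 33.5% and 31.7% of GABAergic amacrine-like cells had a Grin2a UMI, against 1.15%, 0.649% and 0.599% of microglia-like cells.

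Grin2a was unevenly spread over ganglion-like cells. The fewest cells that together held 50% of its UMIs were 13 of 143 in control, 11 of 80 in CCA and 3 of 52 in CCANT, and the top cell of CCANT held 23.4%. For Grin1 the same number was 44, 22 and 15 cells. Unthinned, 55.2%, 65.0% and 34.6% of ganglion-like cells had any Grin2a UMI. Within CCANT, the 21 ganglion-like cells with Y-linked transcripts held 315 CPM and the 20 with Xist 67.8 CPM, so the CCANT level of Grin2a in this class rests on few cells.

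Grin2b, which encodes GluN2B, the subunit that prevails early in development in much of the brain, was counted in ganglion- and amacrine-like cells, in some cone bipolar-like clusters and in MG. Ganglion-like cells held 199 [189, 209], 208 [194.5, 222] and 178 [163, 195] CPM. GABAergic amacrine-like cells held 208 [200, 217], 224.5 [216.5, 233] and 141 [134, 149], and glycinergic amacrine-like cells 291 [273, 311], 164 [156, 172] and 162 [147, 179]. Cone bipolar-like cells stood at 125, 147 and 111 CPM, and rod bipolar-like cells at 17.1, 18.5 and 16.1, close to the microglia-like 18.4, 11.98 and 10.8. The Grin2b part of the Grin2a and Grin2b UMIs was far higher in cone bipolar-like cells than in ganglion- and amacrine-like cells. It was 52.3%, 44.9% and 50.3% in ganglion-like cells and 45.7%, 47.5% and 43.2% in GABAergic amacrine-like cells, but 98.2%, 98.7% and 98.8% in cone bipolar-like cells. Glycinergic amacrine-like cells varied between the libraries, at 73.6%, 54.9% and 63.1%, and the intervals of ganglion- and GABAergic amacrine-like cells overlapped in CCA. Because the 2 genes differ in length and count efficiency, these parts compare classes and do not give a ratio of subunits.

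Grin2c and Grin2d, the genes of GluN2C and GluN2D, had few UMIs. Grin2c totalled 109, 130 and 80 UMIs over all cells of each library, and its level was 5.68 [4.37, 7.25], 6.24 [4.96, 7.75] and 5.39 [4.05, 7.03] CPM in GABAergic amacrine-like cells. It was at most 1.25 CPM in the other classes with at least 20 cells in a library, and 19.5 [10.9, 32.1] CPM in the 27 starburst amacrine-like cells of all libraries together. It came mainly from 2 clusters: N28, led by Pantr1 and Pou3f3, at 52.1, 32.3 and 34.96 CPM, and N14, led by Vgf, Nell1 and Klhl1, at 37.3, 15.02 and 24.7 CPM. Grin2d stood at 21.7 [18.6, 25.2], 21.7 [17.5, 26.6] and 15.2 [10.9, 20.6] CPM in ganglion-like cells, at 18.1, 19.6 and 20.45 CPM in GABAergic amacrine-like cells and at 1.20, 1.74 and 1.24 CPM in bipolar-like cells. Microglia-like cells held 2.50, 0.799 and 2.77 CPM of Grin2d.

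Grin2d was also counted in rods, above the microglia-like level without overlap in control and CCA but not in CCANT. Rods held 19.6 [15.8, 24.1] CPM in control, with 13.1 [10.6, 15.99] in CCA and 4.93 [3.43, 6.85] in CCANT, from 91, 97 and 35 UMIs. The thinned shares were 8.00%, 4.82% and 1.45% of rods with a UMI, with cones at 1.42, 0.683 and 1.62 CPM. CCANT was lower than CCA by a log2 ratio of -1.41 [-2.01, -0.84] in a class in which 1.32% of all tested genes differed at least 2-fold. In rods with Xist the ratio was -2.06 [-3.18, -1.11], from 10 CCANT UMIs. The median rod had 4968 to 5071 UMIs, the lowest depth of the classes, and reads from the antisense gene Kdelr1 cannot be told apart if strand was not used in the counting.

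Grin3a, the gene of GluN3A, differed widely between bipolar-like clusters. Cone bipolar-like cells held 93.6, 104 and 91.4 CPM as a class, but the level came from 2 clusters. Cluster N5, led by Cck, Vsx1 and Tnnt1, held 503.5 CPM in its 66 control cells, 435 in 131 CCA cells and 470.4 in 120 CCANT cells. Cluster N25, led by Skor2 and Cpne9, held 337.5, 364 and 301 CPM in 21, 50 and 55 cells. The members had been left out of the genes used for clustering, so that Grin3a did not define these clusters. The other bipolar-like clusters with at least 20 cells in a library stood at 27.45 CPM or less. Ganglion-like cells held 95.5 [88.9, 102.5], 94.9 [85.9, 105] and 172 [157, 188.5] CPM, and rod bipolar-like cells 2.21, 1.60 and 3.30.

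Grin2b had a bipolar pattern of its own that did not share clusters with Grin3a. Cluster N22, led by Hs3st2 and Tacr3, held 668 CPM of Grin2b in control, 764 in CCA and 589 in CCANT, and each of its 37, 60 and 53 cells had a Grin2b UMI. Cluster N33, led by Nxph1 and Tacr3, held 786 and 659 CPM in CCA and CCANT, and cluster N23, led by Neto1 and Gsg1l2, held 335, 367 and 331. In N5 and N25, the clusters with Grin3a, Grin2b ran from 1.31 to 30.7 CPM, while Grin3a ran from 1.05 to 21.97 CPM in N22, N33 and N23. Neto1 encodes an auxiliary protein that binds NMDA and kainate receptors. Grin1 differed less between the same clusters and ran from 31.3 CPM in the rod bipolar-like cluster N27 to 187 CPM in the cone bipolar-like cluster N8. An unnamed cluster, N26, whose neurons carried Otor and Grik1, held 468.5, 360.0 and 340.2 CPM of Grin2b.

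**Figure D2:**
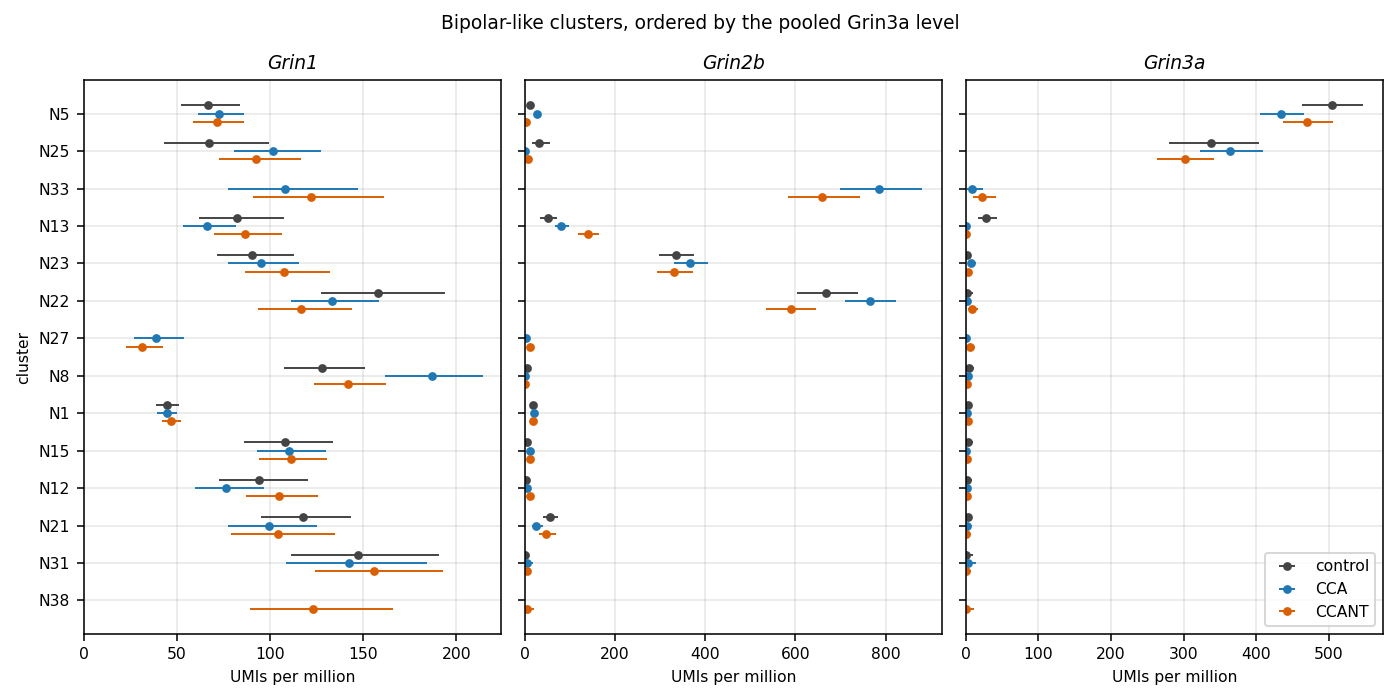
Levels (CPM) of Grin1, Grin2b and Grin3a in the bipolar-like clusters, with 1 point per library and bars for the exact 95% Poisson interval. Grin3a is high in N5 and N25, Grin2b in N22, N23 and N33, and Grin1 is present in every cluster.

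By a fixed measure, the 3 genes closest in pattern to each member were found over 39 sums (13 classes in 3 libraries) among 12506 genes, by Pearson's r of log2(CPM + 1). The 13 classes included the mixed clusters of MG with neurons and of MG with rods, so r rests in part on those. The 3 sums of a class share their cell type and the 13 sums of a library share that library, so r is a description only. Grin1 was closest to Sptbn4 (0.979), Frrs1l (0.974) and Fam155a (0.973), and Grin2a to Rasgrf1 (0.975), Slitrk4 (0.966) and Caln1 (0.964). Grin2b was closest to Ablim3 (0.959), Rims1 (0.941) and 1700025G04Rik (0.906), and Grin3a to Pcdh8 (0.880), Tcerg1l (0.867) and Gm32647 (0.862). For Grin2c the genes were Htr2c (0.927), Zfp488 (0.926) and Cbln4 (0.917), and for Grin2d Sv2c (0.882), Tunar (0.840) and Rbms3 (0.838). Among the members themselves, Grin2a and Grin2d were the closest pair with 0.822, and Grin1 and Grin2b gave 0.487.

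Between CCA and control, no member with enough UMIs differed 2-fold in any of the 4 classes compared. The call used here is a level at least 2-fold higher or lower among genes with at least 50 UMIs over the 2 libraries, and it passed 1.96% of all tested genes in ganglion-like, 4.02% in amacrine-like, 1.29% in bipolar-like cells and 6.33% in kept MG. Of the members, 5, 6, 4 and 5 had enough UMIs and 0 passed in each class. Their median log2 ratios were 0.07, -0.13, 0.08 and -0.22, beside 0.01, 0.05, 0.03 and 0.06 over all genes. Outside these 4 classes members could pass, as Grin2b did in cones, with 64 of 2826927 UMIs in control and 28 of 4390160 in CCA. In the unnamed group N2 and N34, Grin2b was also past 2-fold higher in CCA than in control and than in CCANT, at the levels given above. The share of all genes that passed in cones and in that group was not computed.

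In ganglion-like cells Grin2a was higher in CCA than in control by 0.49 [0.38, 0.61], and the sum of the 6 members by 0.21 [0.15, 0.28]. Grin1, Grin2b, Grin2d and Grin3a lay within 0.18 of 0. In amacrine-like cells the sum was 653 CPM in control and 612 in CCA, a log2 ratio of -0.09 [-0.13, -0.06], and -0.23 when each cell's CPM was averaged. In bipolar-like cells the sum was 224 and 245 CPM, a ratio of 0.13 [0.07, 0.20], which became 0.04 when each cluster was given equal weight. Glycinergic amacrine-like cells had a larger difference, with Grin2b at 291 CPM in control and 164 in CCA. The clusters behind that class differed, since N18 and N29 held 10 and 8 cells in control and 113 and 60 in CCA. N16 was 57 of the 180 cells of the class in control and 70 of 550 in CCA. It held 719 of the 910 Grin2b UMIs of the class in control and 583 of 1551 in CCA, at 1012 and 668 CPM. The part of the clusters in this difference was not tested.

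Between CCANT and CCA, the comparison that holds NMDA, Grin1 differed little in the inner neuron classes. Its log2 ratio was -0.05 [-0.22, 0.13] in ganglion-like, -0.02 [-0.10, 0.05] in amacrine-like and 0.00 [-0.10, 0.11] in bipolar-like cells. The cells measured were those present at the harvest, so cells lost earlier were not counted. Ganglion-like cells were 6.80% of the inner neurons in control, 2.79% in CCA and 2.00% in CCANT, shares that the sort can set.

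The call passed 1.61%, 3.02% and 1.09% of all tested genes in ganglion-, amacrine- and bipolar-like cells for CCANT over CCA, and 2.74% in kept MG. Of the members, 0 of 5, 1 of 6, 0 of 5 and 0 of 5 passed, and the member that did was Grin3a in amacrine-like cells. The members' medians were -0.22, -0.15, -0.49 and -0.12, beside -0.01, 0.00, 0.02 and -0.04 over all genes.

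Grin3a in amacrine-like cells stood at 19.95 [17.7, 22.4] CPM in control. It was 17.7 [16, 19.5] in CCA and 5.50 [4.30, 6.94] in CCANT. The CCANT level was below that of CCA by a log2 ratio of -1.68 [-2.07, -1.32]. The difference was larger in glycinergic amacrine-like cells, with 43.2, 31.4 and 4.41 CPM and a ratio of -2.83 [-3.85, -1.97], where 5.31% of genes passed the call. In cells with Xist the ratio of Grin3a was -1.40 [-1.95, -0.89] in amacrine-like and -2.06 [-3.52, -0.92] in glycinergic amacrine-like cells, the latter from 6 CCANT UMIs. GABAergic amacrine-like cells held 13.6, 8.14 and 5.98 CPM, a ratio of -0.44 [-0.93, 0.02]. Most of the glycinergic UMIs came from cluster N3, led by Esr1, Ak5 and Thsd4, with 132 UMIs in 105 control cells, 261 in 307 CCA cells and 4 in 28 CCANT cells. Its level was 62.4, 48.8 and 9.49 CPM, with 3 UMIs in the 12 CCANT cells with Xist, and N3 held 28 of the 143 glycinergic amacrine-like cells of CCANT against 307 of 550 in CCA. In N3, 9.16% of genes passed the call between CCANT and CCA, the highest share of the 11 amacrine-like clusters. With each cluster at equal weight the ratio in amacrine-like cells was -1.01. The glycine transporter Slc6a9, which clears the NMDA receptor co-agonist, is among the markers used to name glycinergic cells. Over all amacrine-like cells Slc6a9 stood at 298 CPM in CCA and 99.5 in CCANT. Glycinergic cells were 550 of the 1061 amacrine-like cells in CCA and 143 of 559 in CCANT. The part of Slc6a9 and of this make-up in the result was not tested.

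Grin2a and Grin2b were also lower in CCANT than in CCA in amacrine-like cells, by -0.28 [-0.36, -0.20] and -0.39 [-0.47, -0.32], short of 2-fold, while Grin2d was higher by 0.37 [0.13, 0.60]. The sum was 612 CPM in CCA and 518 in CCANT, a ratio of -0.24 [-0.28, -0.20]. It was -0.13 [-0.19, -0.07] when only the 239 CCANT cells with Xist, the sex of the CCA library, were used, with Grin2a at 152 CPM in the cells with Y-linked transcripts and 197 in those with Xist. Grin2d differed more than 2-fold in glycinergic amacrine-like cells, with 11.2 CPM in CCA and 23.3 in CCANT, a ratio of 1.06 [0.57, 1.53], from 106 and 58 UMIs. Control stood at 13.8 CPM. The clusters of that class differed in number, N3 being 307 of 550 cells in CCA and 28 of 143 in CCANT, and N3, the one cluster with enough Grin2d UMIs for the call, did not pass. The ratio was 0.34 [-1.34, 1.66] in N3, 0.59 [-0.31, 1.49] in N16, 0.69 [-0.63, 1.94] in N18 and 1.04 [0.05, 2.04] in N29, the last from 19 UMIs in each library.

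**Figure D3:**
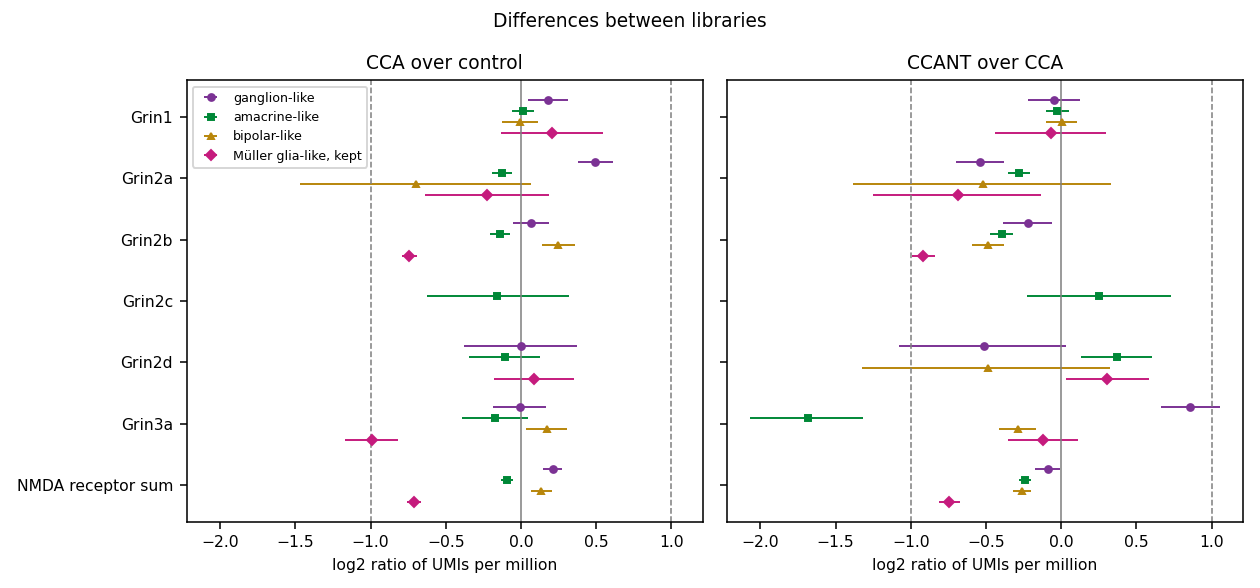
Log2 ratios of each member and of their sum between libraries in 4 cell classes, with bars for the exact 95% interval of a ratio of Poisson counts. Grin1 lies within 0.21 of 0 in every panel, and Grin3a in amacrine-like cells (-1.68, CCANT over CCA) is the member past the 2-fold line.

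By cluster, the differences between CCANT and CCA were uneven for Grin2a and Grin2b and absent at 2-fold for Grin1. Over the 11 amacrine-like clusters with at least 20 cells in both libraries, 3.6% of all gene-by-cluster values passed the call for CCANT over CCA, and 3.46% over 9 clusters for CCA over control. Grin1 had 0 of 11 clusters past 2-fold, with ratios from -0.21 to 0.20. Grin2a passed in 4 of 9 clusters and Grin2b in 3 of 11, all lower in CCANT. Among cells of both libraries with Xist, the sex of the CCA library, Grin2a was past 2-fold lower in N24, N18 and N29 and higher in N3. Grin2b was lower in N4 and N10, and a cluster held 11 to 51 CCANT cells with Xist. Grin2c was past 2-fold higher in N14, at 1.02 [0.05, 1.92], and Grin3a lower in N3, at -1.55 [-3.835, 0.015]. N17 had 0 Grin2a UMIs in 29 CCANT cells and 37 in 53 CCA cells, too few for the call. The share of all genes past 2-fold in these smaller groups was not computed. For CCA over control, none of the 9, 7 and 9 clusters measured for Grin1, Grin2a and Grin2b passed. Grin2c passed in 1 of 2 clusters and Grin3a in 1 of 3, both in N14 and both lower in CCA. Grin2c in N14 was 37.3 CPM in control and 15.02 in CCA, a ratio of -1.31 [-2.02, -0.60], and Grin3a 57.7 and 21.3 CPM, a ratio of -1.44 [-2.01, -0.85]. In N14, 4.62% of genes passed that call. Cluster N17 held 48 Grin3a UMIs in control, 1 in CCA and 3 in CCANT, too few for the call between CCA and control.

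The cluster N10, whose cells carried the neuropeptide genes Tac2, Sst and Tac1, was lower for both genes. Grin2a there was 267 CPM in control, with 349.5 in CCA and 134 in CCANT, a ratio of CCANT to CCA of -1.38 [-1.60, -1.16]. It fell short of 2-fold in cells with Xist, at -0.91 [-1.17, -0.65], and CCANT held 84.0 CPM in cells with Y-linked transcripts and 186 in those with Xist. Grin2b was 197, 299 and 83.5 CPM, a ratio of -1.84 [-2.11, -1.57]. In N10, 2.69% of genes passed the call. Both genes were higher in CCA than in control there, by 0.39 and 0.60, so that the ratio of CCANT to CCA exceeds that to control.

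Cluster N4, led by Lpl, Tnc and Cxcl14, had Grin2b at 76.0, 133 and 44.2 CPM, a ratio of -1.59 [-1.91, -1.28], with Grin2a equal at 239 CPM in both libraries. Cluster N16, a glycinergic cluster led by Gm20063, Ppp1r17 and Gpr149, had Grin2b at 1012, 668 and 226 CPM, a ratio of -1.56 [-1.84, -1.30]. Within CCANT, N16 cells with Y-linked transcripts held 179 CPM of Grin2b (20 cells) and those with Xist 395 (13 cells), and the ratio in cells with Xist was -0.76 [-1.17, -0.37], short of 2-fold. N4 and N16 had 2.1% and 4.06% of genes past the call.

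Cluster N24, led by A930001A20Rik, Car3 and Hpgd, had the lowest ratio of Grin2a, with 361 CPM in control, with 376.5 in CCA and 22.4 in CCANT, a log2 ratio of -4.07 [-5.00, -3.27]. Few cells carried this difference in Grin2a. Grin2a UMIs were found in 14 of 36 control cells, 13 of 46 CCA cells and 3 of 45 CCANT cells, and 4 CCA cells held 50% of the UMIs of their library. Clusters N14 and N18 were lower as well, from 165 to 70.4 CPM and from 189 to 68.8. In cells with Xist the ratios of Grin2a were -0.70 [-1.15, -0.27] in N14, short of 2-fold, -1.60 [-2.40, -0.90] in N18 and -2.79 [-3.76, -1.96] in N24. The direction was not common to all, since N3 had Grin2a at 140 CPM in CCA and 247 in CCANT, a ratio of 0.82 [0.51, 1.12], and N20, led by Insyn2b, Olfm3 and Nefh, had the most Grin2a, at 695, 535.5 and 538 CPM.

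**Figure D4:**
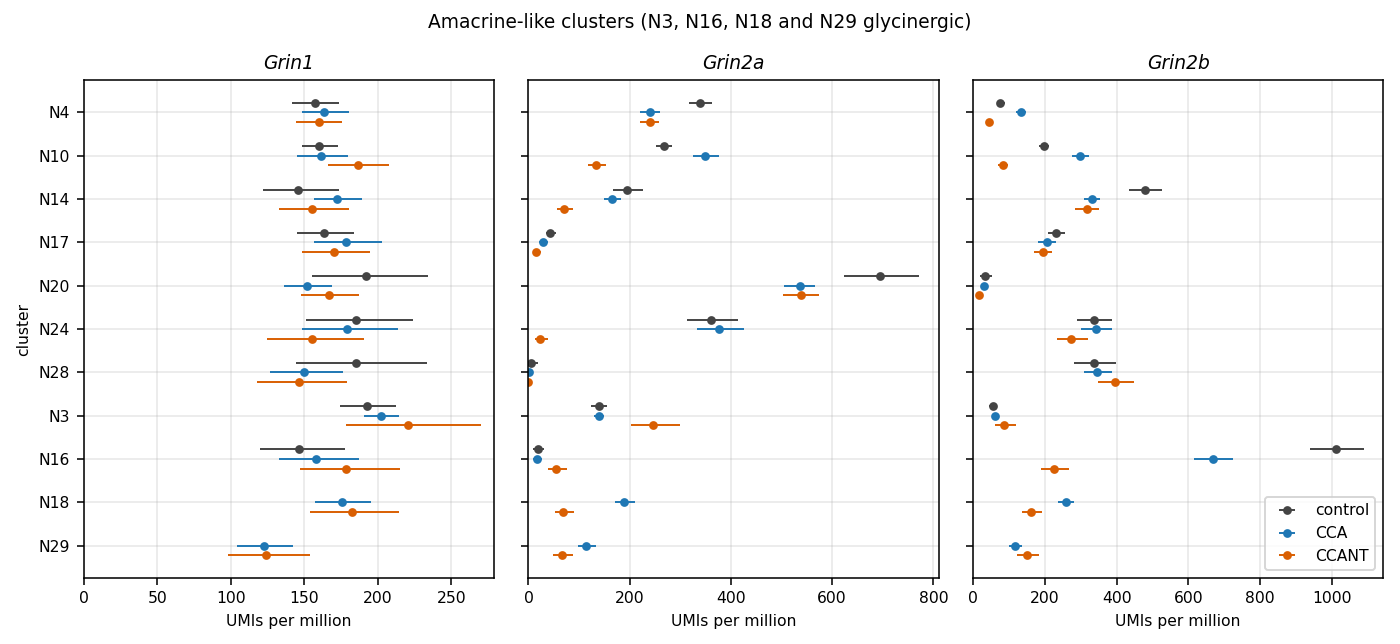
Levels (CPM) of Grin1, Grin2a and Grin2b in amacrine-like clusters with at least 20 cells, with 1 point per library and bars for the exact 95% Poisson interval. Grin1 points of the 3 libraries lie close together in each cluster, while Grin2a in N24 and N10 and Grin2b in N4, N10 and N16 lie lower in CCANT.

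In ganglion-like cells, Grin3a had the largest difference between CCANT and CCA among the 5 members with enough UMIs. It was higher by 0.86 [0.66, 1.05], which is short of 2-fold. CCANT cells with Y-linked transcripts held 199.5 CPM and those with Xist 185 CPM, both above the 94.9 CPM of CCA. In CCANT, 6 of the 52 cells held 50% of its UMIs, against 9 of 80 in CCA and 15 of 143 in control. After thinning, the share of ganglion-like cells with a Grin3a UMI was 20.3% [14.02, 27.8], 30.4% [20.5, 41.8] and 40.4% [27.01, 54.9], and microglia-like cells gave 0.769%, 0.649% and 0%, the last from 0 of 167 cells. The intervals of CCA and CCANT overlapped. Thinned to 8000 UMIs the shares were 39.6%, 38.0% and 41.2%, and without thinning 66.4%, 71.25% and 63.5%, so no order of the libraries is read from them. Grin2a was lower in CCANT by -0.54 [-0.70, -0.38], with the uneven spread over cells given above. In cells with Xist alone, 20 in CCANT, the Grin2a ratio was -1.91 [-2.29, -1.56], past 2-fold, while CCANT cells with Y-linked transcripts, at 315 CPM, lay above CCA, so that the size and direction rest on which cells are used. Grin3a in cells with Xist was higher by 0.96 [0.71, 1.22]. Over all ganglion-like cells the log2 ratio of the sum of the 6 members was -0.09 [-0.17, -0.01].

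In bipolar-like cells, Grin2b was lower in CCANT than in CCA by -0.49 [-0.59, -0.38] and Grin3a by -0.29 [-0.41, -0.16]. The sum was 245 CPM in CCA and 205 in CCANT, a ratio of -0.26 [-0.32, -0.20]. It was -0.10 with each cluster at equal weight. The clusters with most Grin2b differed less, with 764 and 589 CPM in N22, 367 and 331 in N23 and 786 and 659 in N33, and N13, led by Erbb4 and Slit2, went the other way, with 50.3, 81.0 and 139 CPM.

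In MG, Grin2b was the member that stood above the microglia-like level in all libraries, and its level was lower in CCA than in control and lower again in CCANT. In kept MG, 3715, 3660 and 2849 cells, it was 101 [98.8, 103] CPM in control, with 60.2 [58.5, 62.0] in CCA and 31.9 [30.5, 33.4] in CCANT. The log2 ratios were -0.74 [-0.79, -0.69] for CCA over control and -0.92 [-0.99, -0.84] for CCANT over CCA, each short of 2-fold. CCANT over control was -1.66 [-1.73, -1.59], past 2-fold, as was Grin3a at -1.11 [-1.31, -0.91], in a comparison in which 6.64% of all tested genes passed. The joint table of the series, which lists 10926 cells, gave 100.5, 60.3 and 31.9 CPM in the same MG, although it held fewer UMIs than the matrices for the same control cells. Grin1 was at 1.61 to 1.86 CPM in these cells, below the 7.06 to 9.05 CPM of microglia-like cells, so the obligatory subunit was not detectable above background at this depth.

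Thinned to 4000 UMIs, 26.8% [25.3, 28.2] of control, 15.7% [14.6, 16.9] of CCA and 8.99% [7.96, 10.1] of CCANT MG had a Grin2b UMI, against 2.69%, 1.95% and 1.80% of microglia-like cells. Without thinning the MG shares were 56.1%, 36.4% and 24.1%. The median depth of kept MG was 24229, 20746.5 and 20488 UMIs. Glul, the glutamine synthetase gene of MG, gives a measure of MG transcripts found in other cells. MG held 15.04, 10.3 and 5.88 Grin2b UMIs per 1000 Glul UMIs, and microglia-like cells 21.7, 14.7 and 11.4. Rods had 21.0, 19.4 and 7.395 and cones 16.6, 9.78 and 9.65. In each of these classes the ratio was highest in control and lowest in CCANT, but the intervals of control and CCA overlapped in rods, cones and microglia-like cells, and those of CCA and CCANT in cones and microglia-like cells. T cell-, pericyte- and endothelial-like cells, with 1 to 60 Grin2b UMIs in a library, did not have that order, at 17.04, 24.5 and 2.85 for T cell-like, 11.0, 29.3 and 22.65 for pericyte-like and 8.98, 10.5 and 8.43 for endothelial-like cells. Rod bipolar-like cells stood above all of these at 86.8, 106 and 76.0.

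The make-up of kept MG differed between the libraries as well, and its part in the Grin2b difference was not tested. Clusters W2, W5, W1 and W3 made up most of the kept MG, and W2 held 60.0% of them in control, 11.4% in CCA and 1.76% in CCANT. W3, led by the immediate response genes Socs3, Zfp36 and Junb, went from 3.02% to 29.9% and 43.5%. Grin2b was highest in W2, at 137, 128 and 97.8 CPM, and lowest in W3, at 27.4, 16 and 10.3. In W5, led by interferon response genes such as Iigp1 and Gbp2, it was 43.5, 33.5 and 20.4. Within W2 the ratio of CCA to control was -0.10 [-0.19, -0.01] and within W1 -0.11 [-0.26, 0.04]. It was -0.38 [-0.57, -0.19] within W5 and -0.78 [-1.14, -0.40] within W3. With each cluster at equal weight the ratios were -0.19 for CCA over control and -0.58 for CCANT over CCA.

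Between CCANT and CCA, Grin2b was lower within each MG cluster. The ratios were -0.73 [-0.82, -0.64] in W1, -0.38 [-0.69, -0.09] in W2, -0.63 [-0.86, -0.40] in W3, -0.72 [-1.31, -0.17] in W5 and -1.09 [-1.82, -0.42] in the cycling cluster W12. CCANT MG with Y-linked transcripts and with Xist did not differ, at 31.4 and 31.3 CPM. Grin3a in kept MG was 9.31, 4.68 and 4.31 CPM, from 119 of 3715, 61 of 3659 and 40 of 2848 cells with a UMI after thinning. Grin2d was 2.67, 2.83 and 3.51 CPM, with intervals that overlapped those of microglia-like cells in control and CCANT but not in CCA.

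**Figure D5:**
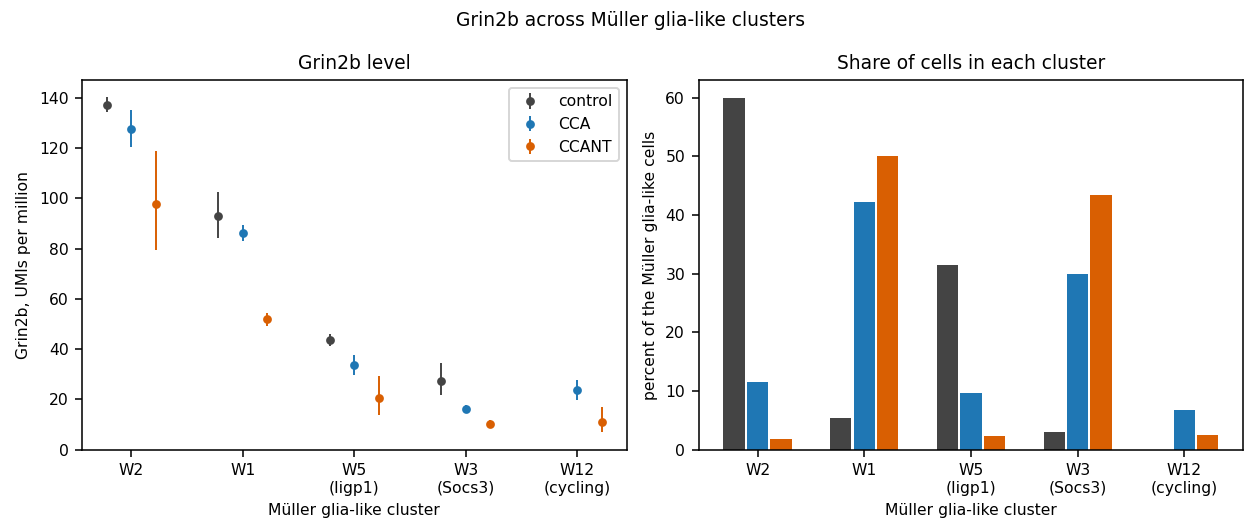
Left, Grin2b (CPM) in the clusters of the MG kept by the authors, by library, with bars for the exact 95% Poisson interval. Right, the percent of the kept MG of each library in each cluster. The level is highest in W2 and lowest in W3, and CCANT lies below CCA in each cluster.

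Outside the neurons and MG, a small cluster that the naming rule left unnamed, W22, led by Fbln1, Optc and Crhbp, held 228, 317 and 358 CPM of Grin2b in 42, 31 and 81 cells. Its highest marker score was 2.98, for pigment epithelium, but none of those markers was among its leading genes.

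The other genes of glutamate signalling, in lists of AMPA (4 genes), kainate (5), delta (2) and metabotropic receptors (8), of co-agonist and transmitter handling (8), scaffolds (10) and effectors and partners (9), mostly stayed short of 2-fold too, beside the shares of all genes given above. In ganglion-like cells, 1 of 6 metabotropic genes and 1 of 9 effectors and partners passed for CCA over control, both lower. They were Grm3, at 29.4 CPM in control and 14.5 in CCA, and Neto1, at 26.1 and 6.30, a ratio of -2.05 [-2.68, -1.47]. In bipolar-like cells, 1 of 5 kainate genes passed for CCANT over CCA: Grik2, at 56.1 CPM in CCA and 26.02 in CCANT. In amacrine-like cells, 1 of 8 metabotropic genes passed for CCA over control, again Grm3, a presynaptic and glial glutamate receptor, at 91.2 CPM in control and 43.1 in CCA. For CCANT over CCA, 3 genes passed there, all lower: Grik3, a kainate receptor subunit, at 54.3 and 18.7 CPM, Grid1, a delta receptor, at 174 and 84.0, and Slc6a9, given above. Glycinergic cells were 180 of the 676 amacrine-like cells in control, 550 of 1061 in CCA and 143 of 559 in CCANT. The part of this make-up in the differences of Grm3, Grik3, Grid1 and Slc6a9 was not tested. The 4 AMPA receptor genes, which carry most fast excitation, had 0 calls in ganglion-, amacrine- and bipolar-like cells in both comparisons, with medians from -0.23 to 0.17.

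In kept MG, 1 of 4 AMPA and 0 of 5 kainate genes passed for CCA over control, where 6.33% of all tested genes passed, 953 of them higher and 155 lower. For CCANT over CCA, 1 of 4 and 1 of 5 passed, both higher, where 2.74% of all tested genes passed, 128 of them higher and 343 lower. Gria3 was 25.3 CPM in control and 51.7 in CCA, a ratio of 1.03 [0.96, 1.10]. Gria1 was 4.08 CPM in CCA and 9.17 in CCANT, and Grik3 19.8 and 48.4, ratios of 1.17 [0.97, 1.37] and 1.29 [1.20, 1.38]. Of the 10 scaffold genes, which include the postsynaptic density gene Dlg4, 9 or 10 had enough UMIs in each of the 4 classes and comparisons, and 0 passed.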

How the data were processed

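Cells were counted with Cell Ranger 6.1.1 against mm10 per the submitters' notes, and the values in the matrices that the authors deposited are raw UMI counts per gene and cell, not normalized. Their joint table, made after Cell Ranger aggregation per the study's methods, holds whole counts that were lower than the matrices for the same control cells (87896357 UMIs against 94439517 in kept MG), and it was used only for a comparison of levels. After removing barcodes under 2000 features, over 100000 UMIs or over 15% mitochondrial UMIs, the rest were clustered with scanpy 1.11.5 and leidenalg 0.10.2 (2000 variable genes, 20 components, 20 neighbours, resolution 0.5, then 1.0 for inner neurons). The NMDA receptor genes, other glutamate receptors, their partners, sex-linked genes and the reporters were left out of the clustering. A cluster was named "X-like" from marker lists, by a rule set after the clusters were seen: a marker score of at least 1.5 and at least 3 markers raised by 1 on the log2 scale. Except for MG, a marker also had to be among the 10 leading genes (those over 200 CPM). For inner neuron clusters alone, a score of 2.5 could take the place of a leading marker. Inner neuron clusters were compared over the inner neuron lists alone, and a bipolar cluster was called rod bipolar-like where that score was the higher and at least 2 of its markers led the cluster, otherwise cone bipolar-like. The members, lists and markers were chosen with earlier results of these data known.

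UMIs were summed per class and library (at least 20 cells) and divided by the total. Libraries had 1 sample per group, so ratios carry exact 95% Poisson intervals and no test was run. The intervals were checked on simulated Poisson counts, which share their assumption. That check cannot show how well they cover counts that vary between cells. Scrublet's own threshold marked 439 of 10521 cells in CCA and none in control or CCANT. Doublets were therefore handled by leaving mixed clusters out of the levels and ratios and, as an alternative, by leaving out the 5% highest scores. Named were the members, list genes that passed 2-fold with 50 UMIs in amacrine-like cells or MG, and the 3 genes most alike each member (at least 20 CPM in a sum, classes with 50 cells). Clusters, and the list genes in ganglion- and bipolar-like cells, were named after their values were seen. No column was left unused. GENCODE annotation and RefSeq windows of GRCm38 gave positions and sequences. Python 3.11.15, numpy 2.4.6 and scipy 1.17.1 were used.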

Additional observations from a re-analysis of the deposited data

How the results depend on the processing

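No paired analysis was possible because each group has 1 library. The sum of the 6 members kept its direction under every alternative run. For amacrine-like cells, CCA over control (-0.09) became -0.14 with median-of-ratios size factors, -0.23 as a mean over cells, -0.32 in cells with a tdTomato UMI and -0.15 with equal weight per cluster. CCANT over CCA (-0.24) became -0.32 in cells with a tdTomato UMI, -0.13 in CCANT cells of the CCA sex and -0.34 with equal weight per cluster. For bipolar-like cells, equal weight gave 0.04 for CCA over control (0.13) and -0.10 for CCANT over CCA (-0.26). The latter was -0.027 in cells with a tdTomato UMI. In control, CCA and CCANT, tdTomato stood at 1.80, 3.83 and 1.86 CPM in amacrine-like and 1.92, 2.70 and 2.69 CPM in bipolar-like cells. Values in cells with a tdTomato UMI therefore rest on a small part of these classes. For kept MG, CCA over control (-0.71) became -0.77 with median-of-ratios size factors and -0.22 with equal weight. CCANT over CCA (-0.74) became -0.67 in MG of the wider set and -0.42 with equal weight. Levels above the microglia-like level numbered 11 instead of 22 when cells were assigned one by one from markers, of which 4 were in rods, a class with none as reported. That assignment left 0 GABAergic amacrine- and rod bipolar-like cells in every library, at most 1 cone bipolar-like cell and 0 glycinergic amacrine-like cells in CCANT. These 4 classes gave 0 levels instead of 15. A cell needed 1 list alone with the most markers, and the lists of these classes share markers with the longer amacrine and bipolar lists. The assignment therefore cannot show whether their levels hold. It took 1207, 2229 and 2805 cells as rods, against 851, 1360 and 1278 named by cluster. Shares above the microglia-like share numbered 18, with 19 and 20 at 8000 UMIs and without thinning. Another 33 recomputed values moved by less than counting error or, for counts, by at most 1.5 times. Of 212 recomputed ratios of single members, 189 kept their sign. Equal weight per cluster, the calls by cluster and of single members in cells with Xist and the removal of the 5% highest Scrublet scores were chosen after seeing the data, the latter in place of Scrublet's own calls, which were not run as planned. Grin2c had at most 130 UMIs in a library, and CCANT held 52 ganglion-like cells.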
